A study of Mus musculus with 4 samples.

Results

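The genes described here are 10 genes of lipid-associated macrophages, chosen by name: Apoe, Abca1, Abcg1, Lpl, Fabp4, Fabp5, Plin2, Trem2, Gpnmb and Spp1. They were found by matching the Ensembl identifiers of the count table, without their version, to these symbols in GENCODE M21. All 10 were among the 54146 genes of the table and among the 14688 genes with enough reads to be tested. The RNA came from tumor associated macrophages (TAMs) of female mice, 8 to 16 weeks old and of the C57BL/6 strain by the methods for this tumor model, that carried MCA205 tumors, a fibrosarcoma line injected under the skin of the right flank. Propranolol, an antagonist of the beta-adrenergic receptors, was given to 1 group in the drinking water at 0.5 g/L from the day of cancer cell injection, and the control mice had water without it. From each tumor suspension, leukocytes were enriched with CD45 beads and live CD11b+ F4/80+ cells were sorted before polyA RNA sequencing. There were 2 control (vehicle) and 2 propranolol libraries. The study describes them as biological replicates, the sources used here do not say whether tumors were pooled, and the number of mice behind a library is not given with the samples.

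Reads assigned to genes numbered 13798249 and 23018142 in control replicates 1 and 2, and 39818103 and 16424081 in propranolol replicates 1 and 2. Levels are given as CPM, reads of a gene scaled to a common library size with TMM factors, and differences as log2 fold change of propranolol over control with its standard error (SE). A gene was called changed when the adjusted p of edgeR's quasi-likelihood test was under 0.05 and the change was more than 1.5-fold. By this rule 27.8% of all tested genes were changed, with 12.2% higher and 15.6% lower in TAMs from propranolol treated mice. Of the changed genes 44.0% were higher, and 60.5% after the correction for GC content described further on.

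Macrophages take up lipoproteins, dying cells and fatty acids, store part of the lipid in droplets, and pass cholesterol out to lipoprotein particles. Those that carry much lipid, in adipose tissue, in atherosclerotic plaques and in tumors, share a set of transcripts that includes the lipid receptor TREM2, the lysosomal membrane protein GPNMB, fatty acid-binding proteins and osteopontin, the product of Spp1. The liver X receptors and PPARs are nuclear receptors that drive many genes of cholesterol export and fatty acid handling.

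Among the 10 genes, 5 had higher levels in TAMs from propranolol treated mice, beside 12.2% of all tested genes called higher. None was called lower by edgeR, DESeq2 or limma-voom, and of the genes with a negative change Lpl had the lower unadjusted p in the edgeR test described above, 0.0844 before adjustment. Spp1 had the largest change of the 10, followed by Plin2, Gpnmb, Fabp5 and Trem2. Apoe, Abca1 and Abcg1 had an adjusted p under 0.05 in edgeR's test with Benjamini-Hochberg adjustment, but changed by less than 1.5-fold. Thus 8 of the 10 were higher by the adjusted p alone, a call made for 21.8% of all tested genes. In the same 8 genes both propranolol libraries lay above both control libraries, which was so for 35.8% of all tested genes. Lpl and Fabp4 passed neither threshold. The median log2 fold change of the 10 genes was 0.74, and that of all tested genes was -0.02. In bulk RNA, more cells that express a gene and more RNA of it per cell cannot be told apart.

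**Figure D1:**
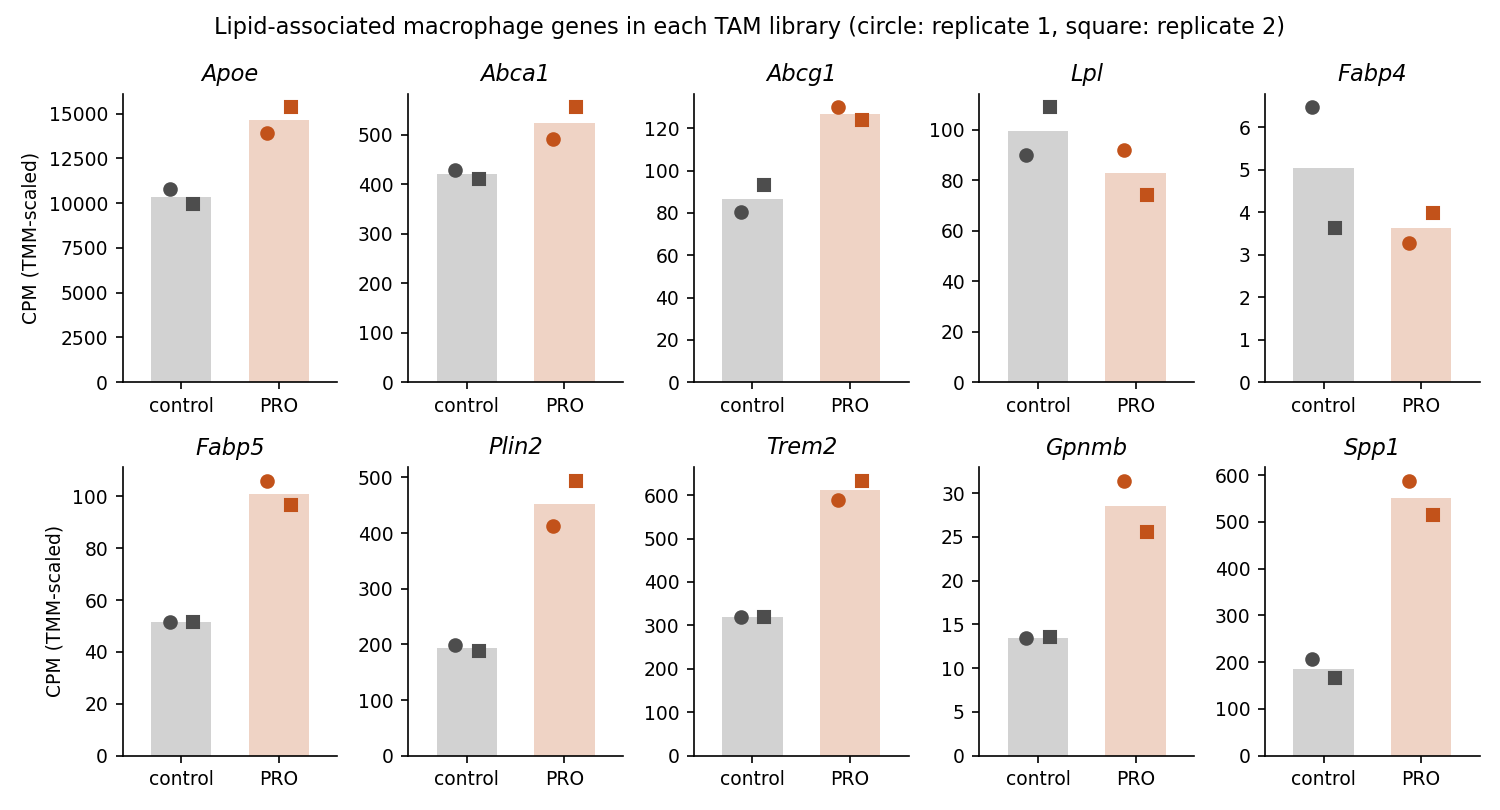
CPM (TMM-scaled, linear axis from 0) of each of the 10 genes in the 2 control and 2 propranolol (PRO) libraries, with circles for replicate 1, squares for replicate 2 and bars for the group mean. In 8 panels both propranolol points lie above both control points, and in the panels of Lpl and Fabp4 the points of the groups overlap.

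The start regions of 4 of the 5 higher genes are printed here, because these genes rose together. Each is 300 bases of the mouse build GRCm38.p6 from RefSeq, 250 bases before and 50 after the RefSeq start, written 5′ to 3′ on the gene's own strand. For Spp1, Plin2 and Gpnmb this start is not the one in the gene coordinates given further on, and for Spp1 and Gpnmb it lies upstream of that one. They are Spp1 at chr5:104434861-104435160 on the plus strand, Plin2 at chr4:86670010-86670309 on the minus strand, Gpnmb at chr6:49036268-49036567 on the plus strand and Trem2 at chr17:48346151-48346450 on the plus strand. Capitals mark the matches to the motifs searched.
Spp1: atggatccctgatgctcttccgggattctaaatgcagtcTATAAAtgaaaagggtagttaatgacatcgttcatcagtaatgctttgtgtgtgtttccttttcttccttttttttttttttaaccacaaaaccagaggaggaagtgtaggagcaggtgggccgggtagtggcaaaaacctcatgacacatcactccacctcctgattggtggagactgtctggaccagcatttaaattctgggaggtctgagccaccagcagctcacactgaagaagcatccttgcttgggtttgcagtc
Plin2: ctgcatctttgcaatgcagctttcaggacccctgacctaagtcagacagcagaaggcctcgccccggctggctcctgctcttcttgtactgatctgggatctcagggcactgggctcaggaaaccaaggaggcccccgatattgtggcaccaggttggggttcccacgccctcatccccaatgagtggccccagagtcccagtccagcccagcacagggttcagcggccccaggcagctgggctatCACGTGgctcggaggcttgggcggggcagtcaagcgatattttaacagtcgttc
Gpnmb: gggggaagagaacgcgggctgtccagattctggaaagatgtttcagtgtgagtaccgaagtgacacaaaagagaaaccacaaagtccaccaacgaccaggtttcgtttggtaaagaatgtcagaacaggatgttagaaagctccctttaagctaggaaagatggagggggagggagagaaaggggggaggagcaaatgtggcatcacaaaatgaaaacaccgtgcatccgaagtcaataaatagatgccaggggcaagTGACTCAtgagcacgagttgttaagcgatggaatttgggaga
Trem2: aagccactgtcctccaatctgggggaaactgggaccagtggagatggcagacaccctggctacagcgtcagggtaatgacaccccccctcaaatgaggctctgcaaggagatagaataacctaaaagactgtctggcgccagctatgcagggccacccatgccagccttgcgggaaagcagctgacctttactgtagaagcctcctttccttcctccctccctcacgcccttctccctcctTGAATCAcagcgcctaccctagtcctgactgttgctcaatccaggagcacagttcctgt

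Of the 10 genes, 6 had an entry in the RefSeq table of start regions, and Abcg1, Lpl, Fabp4 and Fabp5 had none. The 6 motifs searched, on both strands, were the E-box CACGTG, the AP-1 site TGANTCA, the TATA box TATAAA, the cAMP response element (TGACG directly followed by TCA), and the direct repeats DR4 and DR1 of AGGTCA, with 4 bases and 1 base between the copies. Plin2 held an E-box from base -4 to 2 counted from the RefSeq start, letters that the MITF and TFE factors are known to bind. Trem2 held an AP-1 match, TGAATCA, from base -9 to -3, and Gpnmb held another, TGACTCA, from base 9 to 15. The match in Gpnmb lies before the start in the gene coordinates given further on. Spp1 held TATAAA from base -211 to -206, far from the usual place of a TATA box. Abca1 held an E-box from base -147 to -142 and TATAAA from base -29 to -24, and Apoe held none of the 6. Of 32851 start regions of the same length, 7.15% held the E-box, 7.81% the AP-1 site, 13.6% TATAAA, 1.79% the cAMP response element, 0.0152% DR4 and 0.0396% DR1. These matches describe the letters of the windows, and binding was not measured here.

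Apoe, Abca1 and Abcg1 act in cholesterol export. Apoe, on chromosome 7 (mm10, chr7:19696109-19699188, minus strand), encodes apolipoprotein E, the lipid carrier that macrophages secrete. Its reads numbered 159781 and 249017 in control TAMs, against 505246 and 234481 under propranolol. Its level was 10774 and 9926 CPM in control TAMs, and 13896 and 15356 CPM in TAMs from propranolol treated mice. Both propranolol values were above both control values, and the groups did not overlap. The means were 10350 ± 600 and 14626 ± 1032 CPM (SD, n = 2 each). The log2 fold change was 0.50 (SE 0.08, 95% interval 0.31 to 0.69), with an adjusted p of 0.00124 in edgeR's test. This is a 1.41-fold difference, below the fold threshold. Without control replicate 1 the log2 fold change was 0.62, just over 1.5-fold, in a fit with 1 control library, which is assumed to vary like the propranolol libraries.

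Abca1, on chromosome 4 (chr4:53030787-53159895, minus strand), encodes the transporter that loads cholesterol onto lipid-poor apolipoproteins. Its CPM was 429 and 411 in control TAMs, against 492 and 556 under propranolol. The lower propranolol library was above the higher control library. The log2 fold change of 0.32 (SE 0.10, 95% interval 0.10 to 0.54) was the smallest of the 8 positive ones, with an adjusted p of 0.0253 in edgeR's test. Abcg1, on chromosome 17 (chr17:31057675-31117988, plus strand), encodes the transporter that passes cholesterol to high-density lipoprotein. It was at 80.4 and 93.0 CPM in control TAMs, and at 130 and 124 CPM in TAMs from propranolol treated mice. The gap between the groups was wider than the spread within either. Its log2 fold change was 0.55 (SE 0.11, 95% interval 0.30 to 0.79; edgeR, adjusted p = 0.00299), a 1.46-fold difference just under the fold threshold. Abcg1 was called in 3 of 14 alternative settings, at 0.62 with no filter on low counts, 0.67 without control replicate 2 and 0.61 without propranolol replicate 2, the latter pair in fits where 1 group had a single library.

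Lpl, on chromosome 8 (chr8:68880491-68907448, plus strand), encodes lipoprotein lipase, which releases fatty acids from triglyceride-rich lipoproteins. The control libraries had 90.2 and 109 CPM, and the propranolol libraries 92.0 and 74.1 CPM. Propranolol replicate 1 lay between both control libraries, so the groups overlapped. The log2 fold change was -0.26 (SE 0.13) with an interval from -0.56 to 0.04, and edgeR's adjusted p was 0.150. With each library left out it ran from -0.42 without propranolol replicate 1 (edgeR, adjusted p = 0.0195) through -0.10 without control replicate 2 to -0.08 without propranolol replicate 2 (edgeR, adjusted p = 0.676 and 0.683), under 1.5-fold each time.

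Fabp4 and Fabp5 lie on chromosome 3 (chr3:10204088-10208576, minus strand, and chr3:10012548-10016607, plus strand) and encode paralogous cytosolic fatty acid-binding proteins. The 2 genes gave different values. Fabp4, which is most abundant in adipocytes, had only 96, 91, 119 and 61 reads in control replicates 1 and 2 and propranolol replicates 1 and 2. In CPM these were 6.47, 3.63, 3.27 and 3.99. Control replicate 1 was the high library, and the other 3 lay close together. The log2 fold change was -0.47 (SE 0.35) with an interval from -1.24 to 0.31 and an adjusted p of 0.309 in edgeR's test, and without control replicate 1 it was 0.05. At this depth neither a rise nor a fall could be told from the spread.

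Fabp5, the form that most macrophages express, was at 51.4 and 51.6 CPM in control TAMs. In TAMs from propranolol treated mice it was at 106 and 96.5 CPM. Both propranolol libraries were close to each other and far above the control libraries. Fabp5 was 1.97-fold higher, with a log2 fold change of 0.98 (SE 0.11, 95% interval 0.74 to 1.21; edgeR, adjusted p = 0.000173). Reads of Fabp5 could in part fall on near-identical copies. Of 3 such genes Gm6166, with 99.429% identity over 175 bases, had 2, 5, 8 and 12 reads in control replicates 1 and 2 and propranolol replicates 1 and 2. Gm13998 and Gm14328 had at most 3 reads in a library, against 762 or more for Fabp5. Only reads with a mapping quality over 30 were kept, so reads that fit a copy equally well may have been dropped. These counts cannot show how many.

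Plin2, on chromosome 4 (chr4:86648386-86670060, minus strand), encodes perilipin 2, which coats the lipid droplets of cells other than adipocytes. The control libraries had 198 and 188 CPM, and the propranolol libraries 412 and 494 CPM. Both propranolol values were higher than either control value by far more than the gap between libraries of a group. The means were 193 ± 6.77 and 453 ± 57.7 CPM (SD, n = 2 each). Plin2 was 2.35-fold higher, with a log2 fold change of 1.23 (SE 0.11, 95% interval 0.98 to 1.48; edgeR, adjusted p = 0.000103). Its near-identical copy Gm12551 had between 3 and 17 reads in a library, against 2931 or more for Plin2. Here too, reads that fit both equally well may have been dropped, which these counts cannot show.

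Trem2, on chromosome 17 (chr17:48346401-48354147, plus strand), encodes a surface receptor for lipids and lipoproteins that signals through TYROBP. The 2 control libraries both had 319 CPM. In propranolol replicates 1 and 2 the level was 589 and 633 CPM. The groups were well apart, and Trem2 was 1.91-fold higher, with a log2 fold change of 0.94 (SE 0.09, 95% interval 0.73 to 1.14; edgeR, adjusted p = 0.000125). Gpnmb, on chromosome 6 (chr6:49036546-49070929, plus strand), encodes a membrane glycoprotein of late endosomes and lysosomes that is made under lysosomal load. It had few reads, 199 and 338 in control TAMs and 1142 and 391 in TAMs from propranolol treated mice. In CPM the control libraries had 13.4 and 13.5, and the propranolol libraries 31.4 and 25.6. The difference between propranolol libraries was smaller than the gap to the control libraries. Gpnmb was 2.13-fold higher, with a log2 fold change of 1.09 (SE 0.16, 95% interval 0.74 to 1.44; edgeR, adjusted p = 0.000557).

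Spp1, on chromosome 5 (chr5:104435118-104441050, plus strand), encodes osteopontin, a secreted ligand of integrins and CD44. Its reads numbered 3064 and 4152 in control TAMs, against 21378 and 7857 under propranolol. Its level was 207 and 166 CPM in control TAMs, and 588 and 515 CPM in TAMs from propranolol treated mice. The lowest propranolol library was well above the highest control library. The means were 186 ± 29.1 and 551 ± 51.9 CPM (SD, n = 2 each). Spp1 was 2.97-fold higher, with a log2 fold change of 1.57 (SE 0.13, 95% interval 1.29 to 1.85; edgeR, adjusted p = 0.000103). This value was above that of 99.5% of all tested genes. A second annotated gene on the same strand, Gm42793, shares 309 exon bases with Spp1 and had 46, 113, 70 and 60 reads in control replicates 1 and 2 and propranolol replicates 1 and 2.

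**Figure D2:**
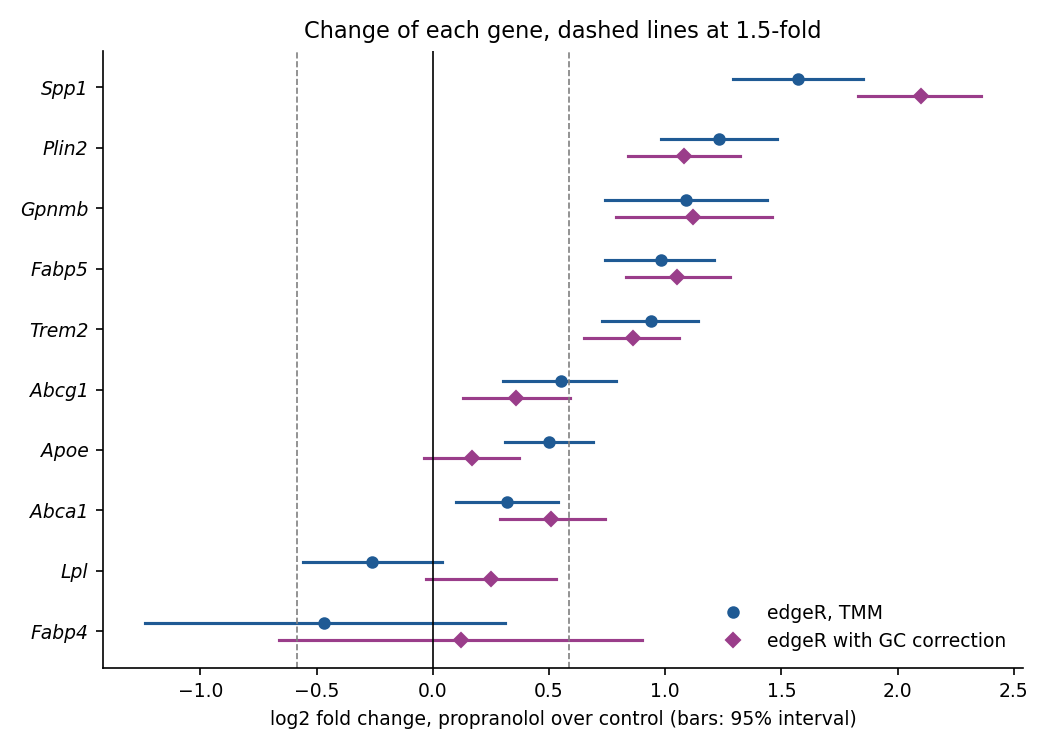
Log2 fold change of propranolol over control with its 95% interval for each gene, from the edgeR test (blue circles) and from the same test with the GC correction (purple diamonds); dashed lines mark 1.5-fold. For Spp1, Plin2, Gpnmb, Fabp5 and Trem2 both points lie above 1.5-fold, while Apoe moves from 0.50 to 0.17 and Lpl from -0.26 to 0.25.

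Levels of different genes were compared per length, as TPM, in which reads are divided by the length of the longest protein-coding transcript and scaled to the same total in each library. Apoe was by far the most abundant of the 10, with 18244 and 17249 TPM in control TAMs, against 19459 and 22486 TPM under propranolol. On the length of all exons it ranked 4 among all genes in both groups. Trem2 followed with 700 and 717 TPM in control TAMs and 1068 and 1200 TPM in TAMs from propranolol treated mice. Spp1 and Plin2 were neighbours in control TAMs, where the 327 and 269 TPM of Spp1 lay little above the 250 and 244 TPM of Plin2. In TAMs from propranolol treated mice Spp1 had 769 and 704 TPM and Plin2 430 and 539 TPM, and the gap was wider. Fabp5 had 124 and 128 TPM in control TAMs, more than the 99.8 and 98.1 TPM of Abca1. Next came Lpl with 52.3 and 64.6 TPM and Abcg1 with 32.9 and 39.0 TPM in the control libraries. In the propranolol libraries these neighbours overlapped, at 44.1 and 37.1 TPM for Lpl and 44.0 and 43.7 TPM for Abcg1. Fabp4, with 17.2 and 9.91 TPM, and Gpnmb, with 8.64 and 8.91 TPM, had the lowest levels in control TAMs. In TAMs from propranolol treated mice Fabp4 had 7.20 and 9.19 TPM and Gpnmb 16.7 and 14.3 TPM. On the length of all exons, which for Fabp4, Fabp5 and Trem2 includes transcripts with retained introns, Trem2 had 211 and 217 TPM in control TAMs and lay below Spp1, with 410 and 338 TPM. On that length Fabp5 (47.1 and 48.7 TPM) was below Abca1, Lpl (28.2 and 34.9 TPM) below Abcg1 (36.0 and 42.9 TPM), and Gpnmb (6.74 and 6.97 TPM) above Fabp4 (4.72 and 2.72 TPM) already in control TAMs, so these orders depend on the length used. The closeness of Spp1 and Plin2 in control TAMs depends on it too. On the length of all exons Plin2 had 184 and 180 TPM there, with Trem2 between it and Spp1. TPM is not scaled by TMM, so on this scale the genes that rose differed by less between the groups, and Lpl and Fabp4, at lower means under propranolol, by more. Abca1 then overlapped between the groups, at 131 and 154 TPM under propranolol and 134 and 136 TPM in control TAMs on the length of all exons, whereas Lpl and Fabp4 no longer did.

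Across all tested genes genes richer in G and C, measured in the longest transcript, had the higher log2 fold changes, with a Spearman correlation of 0.577 over 14681 genes, which are not independent replicates. The 10 genes were also tested with a spline on GC content taken out of every library, which left a correlation of 0.053. Their GC contents ran from 42.7% for Fabp4 and 43.3% for Spp1 to 59.5% for Apoe, around a median of 49.6% for all tested genes. After the correction the 5 changed genes were still called higher, beside 7.64% of all tested genes. Spp1 moved up to a log2 fold change of 2.10 (edgeR with GC correction, adjusted p = 6.13e-05). Plin2 was at 1.08, Gpnmb at 1.12, Fabp5 at 1.05 and Trem2 at 0.86. The export genes moved in different directions. Apoe, with the highest GC content, was at 0.17 and no longer passed the adjusted p (edgeR with GC correction, adjusted p = 0.226). Abcg1 was at 0.36 and Abca1 at 0.51, with adjusted p of 0.0304 and 0.00667 in the same test. Lpl turned from -0.26 to 0.25 and Fabp4 from -0.47 to 0.12, neither of them past the threshold. With the GC content of the longest coding transcript instead, which for Trem2 is 57.5% rather than 51.0%, Trem2 was at 0.59 (edgeR with GC correction, adjusted p = 0.00270), barely over 1.5-fold. The cause of the trend with GC content was not tested.

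**Figure D3:**
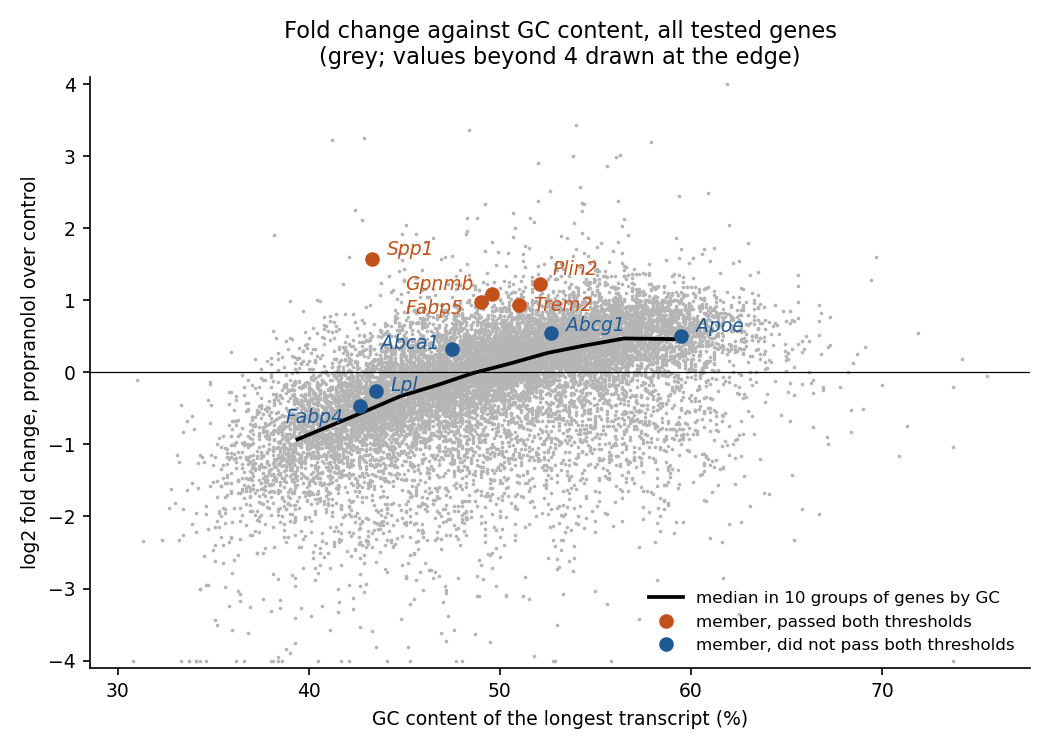
Log2 fold change of propranolol over control (vertical axis) against the GC content of the longest transcript in percent (horizontal axis) for all tested genes (grey, values beyond 4 drawn at the edge), with the median of 10 groups of genes by GC content as a black line. Spp1 lies far above the line at a GC content of 43.3%, whereas Apoe lies on it at 59.5%.

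Counts called in the lists that follow stand beside 12.2% of all tested genes called higher and 15.6% called lower. With the GC correction 7.64% of all tested genes were called higher. The other genes of cholesterol export and of the liver X receptors were described by a list of 20, of which 17 were tested. The test called 6 of them higher and 3 lower, and their median log2 fold change was 0.39. With no filter on low counts 6 were higher and 1 lower. The stricter test glmTreat called 2, each higher, and the GC correction on coding transcripts called 1, higher. Nr1h2, which encodes liver X receptor beta, was at 103 and 114 CPM in control TAMs and at 192 and 209 CPM in TAMs from propranolol treated mice (log2 fold change 0.89, SE 0.10; edgeR, adjusted p = 0.000226). Nr1h3, the alpha form, was higher too, from 25.4 and 29.8 CPM to 41.4 and 42.2 CPM (0.59, SE 0.13; edgeR, adjusted p = 0.00478). Stard3, a sterol transfer protein of late endosomes, rose from 80.5 and 87.7 CPM to 155 and 164 CPM (0.92, SE 0.10; edgeR, adjusted p = 0.000186). Among the lower genes were Osbpl8, a lipid transfer protein of the endoplasmic reticulum, at a log2 fold change of -0.80, and Soat1, which esterifies cholesterol for storage, at -0.65. Npc2, the lysosomal cholesterol carrier and the most abundant of the list, had 970, 907, 1017 and 865 CPM and a log2 fold change of 0.00. With the GC correction the median was 0.19 and 3 of the 17 were called, each higher. These were Stard3, Ch25h and Npc1, and Nr1h2 (0.57), Nr1h3 (0.26) and Osbpl8 (0.06) were no longer called.

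Of the genes of lipoprotein and fatty acid uptake, 6 of 17 passed as higher, and the median was 0.46 on the log2 scale. Stab1, a scavenger receptor, rose from 2650 and 2889 CPM to 6322 and 7970 CPM (log2 fold change 1.37, SE 0.11; edgeR, adjusted p = 0.000103). Lrp1, an endocytic receptor that binds apolipoprotein E and lipoprotein lipase, rose from 2070 and 2305 CPM to 4394 and 5885 CPM (1.23; edgeR, adjusted p = 0.000148). Both were called after the GC correction as well, at 1.03 and 0.89. Slc27a4, a fatty acid transport protein, was at 0.86 and after the GC correction at 0.53, under the fold threshold. The scavenger receptors Cd36 and Msr1 are known for the uptake of modified lipoproteins, and their libraries overlapped between the groups, with log2 fold changes of -0.13 and 0.03. After the GC correction these were 0.93 and 1.09 and both were called higher, and each has a GC content of 38.4%.

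The list of lipid droplet and triglyceride genes held 22 genes, of which 18 were tested. The test called 6 of them higher and 2 lower, at a median of 0.45 on the log2 scale, which was 0.15 without propranolol replicate 2 and 0.30 with the GC correction. Plin2 was thus accompanied by G0s2, an inhibitor of triglyceride lipase, which rose from 14.0 and 12.5 CPM to 49.7 and 58.7 CPM (log2 fold change 2.03, SE 0.14; edgeR, adjusted p = 0.000103). Hilpda, another droplet protein that inhibits the lipase and is induced by hypoxia, rose from 31.4 and 29.1 CPM to 60.6 and 67.9 CPM (1.09; edgeR, adjusted p = 0.000189). Dgat1, which makes triglycerides, was at 1.02, and Pnpla2, the triglyceride lipase itself, at 0.70. Acsl4, an acyl-CoA synthetase for arachidonic acid, fell from 134 and 129 CPM to 60.4 and 51.3 CPM (-1.23; edgeR, adjusted p = 0.000103), and after the GC correction it was at -0.25 and not called. G0s2 (1.71), Hilpda, Dgat1 (0.69) and Gpat3 (0.98) were called higher with the correction, while the lipase genes Pnpla2 (0.37) and Lipe (0.30) were not. The most abundant gene of the list, Acsl5, had a log2 fold change of -0.32 and an adjusted p of 0.0558 in edgeR's test.

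Of the PPAR and fatty acid oxidation genes, 12 of 17 were tested. Their median was 0.17 on the log2 scale, and 0.28 without control replicate 1. Of the 12 tested, 2 passed as higher, a share of 16.7% near the 12.2% of all tested genes. They were Ucp2, a mitochondrial carrier, from 1227 and 1202 CPM to 2146 and 2275 CPM (log2 fold change 0.86; edgeR, adjusted p = 0.000125), and Cpt1a, which admits fatty acids to mitochondria (0.60; edgeR, adjusted p = 0.00287). With the GC correction neither was called, at 0.57 and 0.50, and Hadhb was (0.74). The GC content of Hadhb was 39.1% in the longest transcript and 45.4% in the longest coding transcript. With the GC content of coding transcripts 0 genes of the list were called. Pparg, the receptor under which Fabp4 and Lpl are regulated in adipocytes, had 8.36, 8.69, 6.90 and 5.50 CPM, a log2 fold change of -0.45 and an adjusted p of 0.143 in edgeR's test.

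The list of TREM2 signalling genes and of transcripts that accompany lipid-associated macrophages held 22 genes, all tested. The test called 7 of them higher and 2 lower, at a median of 0.22 on the log2 scale, which was 0.40 without control replicate 1. With upper-quartile factors 4 were higher and 3 lower. A filter of CPM of at least 1 in both libraries of a group gave 5 higher and 3 lower, and glmTreat 1 higher. Tyrobp, the signalling partner of TREM2, was at 462 and 465 CPM in control TAMs and 701 and 622 CPM in TAMs from propranolol treated mice (log2 fold change 0.51; edgeR, adjusted p = 0.00216), below 1.5-fold. Its log2 fold change was 0.23 after the GC correction (edgeR with GC correction, adjusted p = 0.129). Plcg2 and Pik3cd, which act further down, were each at 0.60 and called. Lgals1, galectin-1, was at 0.96, Fcrls at 0.79 and Ctsd, the protease cathepsin D, at 0.78. Cst7 (-1.03) and Clec7a (-0.90), which in microglia accompany Trem2, were lower. The most abundant gene of the list was Ctsb, cathepsin B, with 4911, 4505, 7010 and 6773 CPM and a log2 fold change of 0.55, under 1.5-fold. After the GC correction 5 were higher, Lgals1, Ctsb, Ctsl, Cd300lf and Fcrls, and 1, Cst7, was lower, while Plcg2 (0.33), Pik3cd (0.27) and Ctsd (0.47) were not called.

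Gpnmb is a target of the MITF and TFE factors in other cells. Of 12 genes of these factors and of relatives of GPNMB 1 passed as higher and 1 as lower, at a median of 0.08 on the log2 scale, which ran from -0.03 without control replicate 2 or propranolol replicate 1 to 0.20 without propranolol replicate 2 and 0.33 without control replicate 1. The pair were Flcn, folliculin (0.70), and its binding partner Fnip1 (-1.26), which both act on the location of these factors, and neither was called after the GC correction, with which the median was 0.35 and Tfec (0.98) and Atp6v1h (1.05) were called higher. Mitf was at -0.40 and Tfe3 at 0.58, both short of 1.5-fold, and with the GC correction they were at 0.11 and 0.43. The most abundant, Sqstm1, an autophagy receptor, was at 0.23 with an adjusted p of 0.0725 in edgeR's test. Of 11 genes of receptors and processing of osteopontin, 3 passed as higher and 3 as lower, at a median of 0.14, which was 0.23 without propranolol replicate 2. The integrin genes Itga4 (-0.94), Itgb1 (-0.77) and Itgav (-0.61) were lower, and Itgb5 (0.66), the most abundant of the list, was higher. Fam20c, the kinase of secreted phosphoproteins, was at 0.94 and Mmp9, a protease, at 1.09, and these were the 2 of the list still called with the GC correction.

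**Figure D4:**
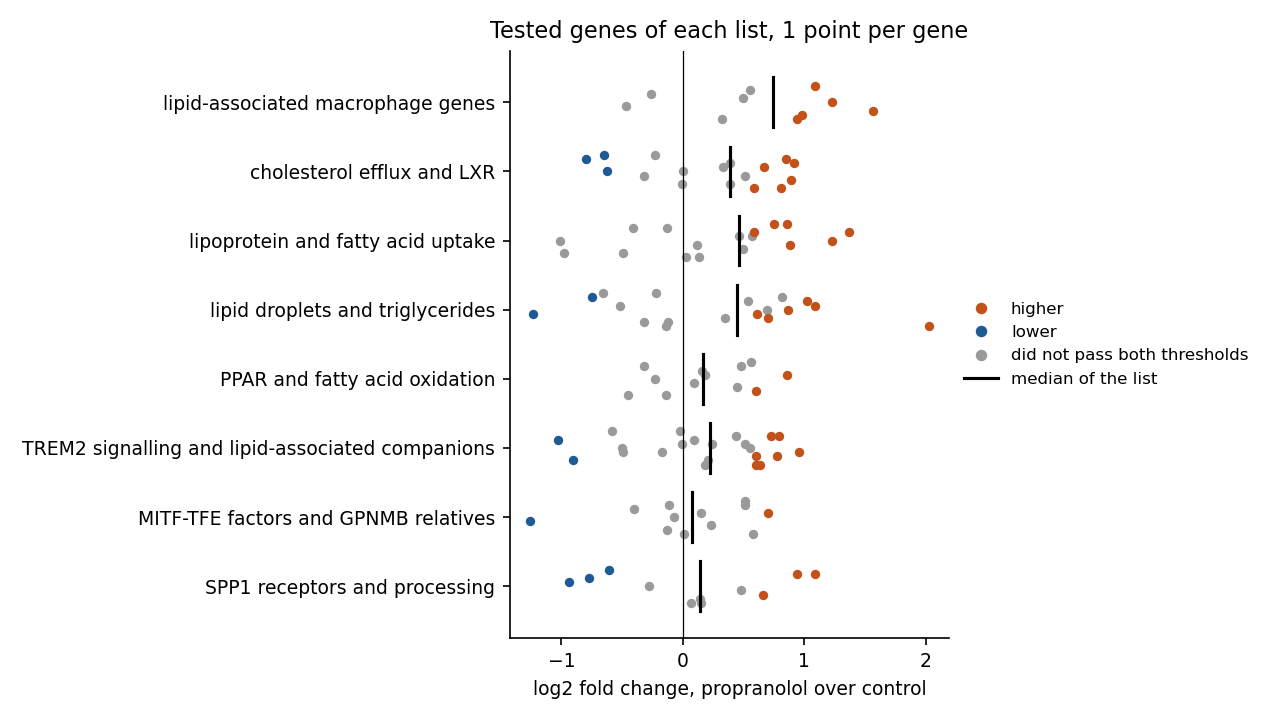
Log2 fold change of propranolol over control (horizontal axis) for each tested gene of the 10 named genes and of the 7 companion lists, 1 point per gene, coloured by call, with the list's median as a vertical bar. The median runs from 0.08 for the MITF and TFE list to 0.74 for the named genes, and every list holds genes that did not pass both thresholds.

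Genes of other cell types were measured in the same libraries, since the sorted cells could hold others that express these transcripts. The 11 macrophage markers were all present, summed to 23033, 22081, 28883 and 26111 CPM in control replicates 1 and 2 and propranolol replicates 1 and 2, and were led by Lyz2. Of these Csf1r was called higher (log2 fold change 0.59), but not with the GC correction (0.32), where Mrc1 was called instead (0.85), and no marker was called with upper-quartile factors or the stricter filter. By the adjusted p alone 7 of the 11 macrophage markers were higher and 0 lower, beside 21.8% of all tested genes higher. A rise by that rule was thus not particular to the 10 genes. Adgre1 and Itgam, which encode the sort antigens F4/80 and CD11b, were at 0.18 and -0.06. Adipocytes express Fabp4 and Lpl, and their defining genes were near 0. Adipoq was at most 0.202 CPM, Lep at most 0.159 CPM and Plin1 at most 0.399 CPM in any library. The summed level of the 8 adipocyte markers, 34.3, 40.8, 55.8 and 55.5 CPM, was mostly that of Lipe, which was the 1 called of 3 tested and was not called without control replicate 1 or propranolol replicate 1. Endothelial cells also express Fabp4. Of their 10 markers 8 were tested and 1 was higher, Cdh5 (0.77). None was called with the GC correction, DESeq2 or upper-quartile factors or without control replicate 2, and without propranolol replicate 1 the 1 call was lower. The sums of 63.4, 66.4, 77.6 and 64.4 CPM were led by Pecam1 (0.24).

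Several markers of other myeloid cells moved in the same direction as the 5 higher genes. The 10 neutrophil markers summed to 150 and 182 CPM in control TAMs and to 311 and 327 CPM in TAMs from propranolol treated mice, and 4 of 7 tested were higher. S100a9 rose from a mean of 20.1 CPM to 83.1 CPM (log2 fold change 2.04; edgeR, adjusted p = 6.05e-05). Csf3r, the most abundant, was at 0.56, and the granule genes Ngp and Camp were at most 0.472 CPM in any library. Ly6g, the surface gene that marks neutrophils, had 0 and 2 reads in control TAMs and 17 and 8 under propranolol and was not tested, and with no filter on low counts 6 neutrophil markers were called higher. Of 7 monocyte markers 3 were higher, with Chil3 at 1.28, and their sums were 962, 867, 1111 and 962 CPM, led by F13a1. Ccr2, the monocyte chemokine receptor gene, went the other way, with 454, 397, 306 and 262 CPM and a log2 fold change of -0.58, just short of 1.5-fold (edgeR, adjusted p = 0.00249), and with the GC correction it was at 0.36 and not called. Without propranolol replicate 1 the monocyte list had 1 gene higher and 1 lower. Genes of other cells went the other way. The 12 mesenchymal and fibrosarcoma markers, led by Col3a1, summed to 3760 and 1443 CPM in control replicates 1 and 2 and to 820 and 856 CPM in the propranolol libraries, and 10 were lower, with Aspn (-5.27) at the lowest adjusted p. Control replicate 1 stood apart in these genes. Without this library the median log2 fold change of the 12 markers was still negative, at -0.89 against -1.82 with all libraries. Leaving it out thus did not remove the mesenchymal difference. In the same fit, with 1 control library, the 5 higher genes of lipid-associated macrophages kept positive log2 fold changes. Spp1 was at 1.79, Plin2 at 1.32, Gpnmb at 1.14 and Fabp5 at 1.03, and Apoe was at 0.62. T and NK cell markers, led by Cd8a, summed to 285, 323, 138 and 74.8 CPM, with 10 of 11 lower, among them Klrd1 (-3.24), and the dendritic cell markers, led by Dpp4, to 44.3, 44.2, 25.7 and 21.9 CPM, with 4 of 7 lower, among them Dpp4 itself (-1.26). With the GC correction 1 dendritic cell marker was called lower, and 0 with the GC content of coding transcripts. None of the marker genes of any list was at 0 in all 4 libraries. Their part in the levels of the 10 genes was not tested.

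**Figure D5:**
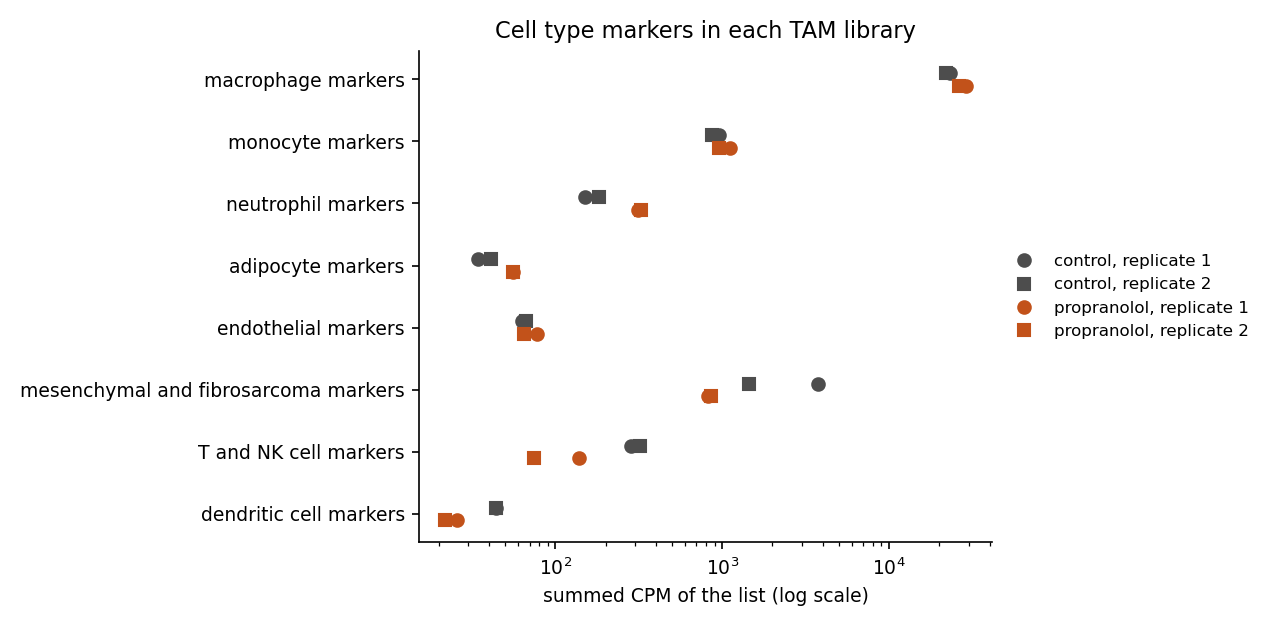
Summed CPM (log axis) of each list of cell type markers in the 4 libraries, with circles for replicate 1 and squares for replicate 2, dark for control and orange for propranolol. The neutrophil sum is higher in both propranolol libraries, the mesenchymal, T and NK and dendritic sums are lower, and control replicate 1 has the highest mesenchymal sum at 3760 CPM.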

How the data were processed

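RNA was used for sequencing when its integrity number was over 7.5, and libraries were made from 400 ng after polydT enrichment. Per the study's methods and processing notes, the authors aligned paired reads with STAR 2.7.1a to mm10, kept those with a mapping quality over 30 with SAMtools 1.9 and counted reads in exons per gene with featureCounts 1.6.4. The deposited values are raw counts per gene. The annotation release is not given in the sources used here, nor is strand, so reads of overlapping genes may not be told apart. Identifiers were matched to GENCODE M21, with a symbol for 54079 of 54146 genes.

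Counts were analysed in R 4.3.3 with edgeR 4.0.16 (filterByExpr with a minimum count of 10, TMM, glmQLFit and glmQLFTest, all 4 libraries, no covariates), and p-values were adjusted over 14688 genes by Benjamini-Hochberg. The SE is the log2 fold change divided by the square root of F. A gene was called at an adjusted p under 0.05 and over 1.5-fold. The GC correction removed from each library a natural spline (5 degrees of freedom) of its deviation in log2 CPM on the GC content of the longest transcript, through offsets. Near-identical copies were genes with 95% identity over 100 bases in blastn 2.17.0. The code was tested on simulated data. Replicates of a group differed by more than sampling noise (chi-square per degree of freedom 10.6 and 13.7), and 2 against 2 libraries cannot reach an exact permutation p under 0.333, so the tests rest on edgeR's model across genes.

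Alternatives were DESeq2 1.42.0 and its size factors, upper-quartile factors, other filters, limma-voom (limma 3.58.1), glmTreat, each library left out, the replicate block, other thresholds and the GC correction. A GC correction and TPM on the longest coding transcript were added after the data were seen. The 10 genes and all lists were chosen with earlier results of these data known. All 10 genes were named, and in each companion list the 3 called genes with the lowest adjusted p and the most abundant gene. In each marker list the most abundant gene, the called gene with the lowest adjusted p and any gene at 0 in all libraries were named. Others named were chosen after their values were seen.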

Additional observations from a re-analysis of the deposited data

How the results depend on the processing

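Across 14 alternative fits Spp1, Plin2, Gpnmb, Fabp5 and Trem2 were called higher each time. Their log2 fold changes ran from 1.43 to 2.13, 1.08 to 1.36, 0.93 to 1.25, 0.91 to 1.34 and 0.59 to 1.01, and the highest adjusted p was 0.00270, for Trem2 in edgeR with the GC content of coding transcripts. Apoe ran from 0.15 to 0.62, Abca1 from 0.26 to 0.55 and Abcg1 from 0.36 to 0.67. Lpl changed sign to 0.25 with the GC correction, 0.25 with it and the replicate block, and 0.28 with the GC content of coding transcripts. Fabp4 changed sign to 0.12, 0.14 and 0.44 in the same fits, and ran from -0.83 to 0.05 with each library left out, the positive value without control replicate 1. Of the 10 genes 8 were called with no fold threshold and 1 with an absolute log2 fold change above 1.5, and 5 or 6 with each library left out. A fit without a library has 1 library in a group, so its spread comes from the other group alone, the lone library is assumed to vary alike, and its p-values are not firmer than those of all 4 libraries.

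Of all tested genes 4084 were called, and 3615 to 4329 with each library left out. The count was 1855 with the GC correction, 2128 with it and the replicate block, 1601 with the GC content of coding transcripts (a choice made after the data were seen), 6204 with no fold threshold, 728 above a log2 fold change of 1.5 and 1093 with glmTreat. The share of higher genes among those called was 44.0%, 60.5% with the GC correction, 55.5% with it and the block, 56.8% on coding transcripts, 54.4% without control replicate 1, 35.9% with upper-quartile factors and 8.38% above an absolute log2 fold change of 1.5. Of the MITF and TFE list 4 were called without control replicate 2 and 5 without propranolol replicate 1, and of the PPAR list 4 without propranolol replicate 1 and 1 without propranolol replicate 2, against 2 in each with all libraries. With a library left out, 1 to 3 macrophage markers and 0 to 3 endothelial markers were called, where all libraries gave 1 each. The replicate numbers of 2 pairs do not establish pairing. Deviations of like-numbered libraries correlated at 0.169 across 14688 genes, and with the replicate block 4362 genes and 5 of the 10 were called. DESeq2 called 3722 genes and 5 of the 10. The cause of these changes was not tested.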
